A study of Mus musculus with 6 samples.

Results

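E2F1 binding was examined at 10 genes that regulate the anaphase-promoting complex (APC/C) and the Skp1-cullin-F-box (SCF) ubiquitin ligases: Cdc20, Fzr1, Fbxo5, Ube2c, Ube2s, Skp2, Cks1b, Cks2, Fbxw7 and Ccnf. The genes were chosen by name from 21887 protein-coding genes, with earlier results of these data known. A peak was assigned to a gene when it lay inside the gene's RefSeq span on GRCm38 or within 1000 bp of it. The peaks come from ChIP-seq, which sequences the DNA recovered with an immunoprecipitated protein, named as E2F1 in the series' own description, from NIH/3T3 cells, an established mouse embryonic fibroblast line. One group carried a stably integrated, doxycycline-inducible E2F1 construct and the other the matching empty vector (EV), with 2 libraries each. Cells of both groups were held in 0.25% serum for 48 hours and then given doxycycline for 12 hours. The labels do not say whether the lines are single clones or whether the libraries came from separate cultures, and further input samples of the EV cells, 2 in number, were not analysed here.

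The APC/C and the SCF ligases attach ubiquitin to cell cycle proteins and so mark them for destruction. The APC/C acts in mitosis with the coactivator Cdc20 and in late mitosis and G1 with the coactivator Cdh1, which the gene Fzr1 encodes. The SCF ligases act mainly from late G1 to G2 and take their specificity from F-box proteins such as Skp2, Fbxw7 and cyclin F. E2F1 is a transcription factor that binds promoters of genes for S phase entry, and the ligases control several proteins made under E2F, which is why their regulators are of interest in cells leaving a resting state. Many genes that peak in G2 and mitosis carry instead a cell cycle genes homology region (CHR), an element bound by the MuvB complex, together with CCAAT boxes bound by NF-Y.

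Of the 10 genes, 9 had a peak in E2F1 replicate 1 and the same 9 had one in E2F1 replicate 2, while neither EV library listed a peak at any of them. Of all protein-coding genes, 36.9% and 38.2% had a peak in E2F1 replicates 1 and 2. The shares were 0.0366% and 0.407% in EV replicates 1 and 2. Cdc20 was the gene of the 10 without a peak. The strength of the peaks fell into separate ranges. Peaks at Ube2s, Ccnf, Fbxo5 and Skp2 were in the top 10% of both E2F1 lists by fold enrichment, the ratio of read pileup to local background at the summit. Ranked by score or by pileup, Skp2 left the top 10% of replicate 1, at 12.6% and 19.1%, and the other 3 remained. The peak at Fzr1 was near the middle of the lists, and those at the starts of Cks2, Ube2c, Fbxw7 and Cks1b were below the median fold of both lists.

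The promoters of 7 of these genes are shown. The first 5 share a match to the CHR letters near the start. They differ in their E2F1 peaks, from none at Cdc20 to strong ones at Ccnf and Fbxo5. Ube2s and Skp2 are genes with strong peaks and no such match near the start. A match is a run of letters, and binding to it was not tested. Each sequence is from RefSeq, assembly GRCm38.p6, and runs 5′ to 3′ on the gene's strand from 200 bases before to 20 bases after the annotated start site, the start itself being position 1. Capitals mark the CHR letters TTTGAA or TTCGAA and the box CCAAT on either strand, so TTCAAA and ATTGG are their reverse complements. Skp2 has more than one annotated start, and the one under its peak is shown, a stretch with no match to either.
Cdc20, chr4:118437324-118437543, minus strand: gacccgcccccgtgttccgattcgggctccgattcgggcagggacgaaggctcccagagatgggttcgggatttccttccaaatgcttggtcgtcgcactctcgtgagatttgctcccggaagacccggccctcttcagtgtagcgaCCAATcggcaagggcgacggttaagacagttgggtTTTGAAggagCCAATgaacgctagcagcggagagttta
Ube2c, chr2:164769729-164769948, plus strand: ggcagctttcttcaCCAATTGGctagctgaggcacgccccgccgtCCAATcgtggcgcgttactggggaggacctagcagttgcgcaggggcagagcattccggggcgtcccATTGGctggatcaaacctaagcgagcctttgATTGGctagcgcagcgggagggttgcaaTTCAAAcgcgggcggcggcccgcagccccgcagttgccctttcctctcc
Cks1b, chr3:89418272-89418491, minus strand: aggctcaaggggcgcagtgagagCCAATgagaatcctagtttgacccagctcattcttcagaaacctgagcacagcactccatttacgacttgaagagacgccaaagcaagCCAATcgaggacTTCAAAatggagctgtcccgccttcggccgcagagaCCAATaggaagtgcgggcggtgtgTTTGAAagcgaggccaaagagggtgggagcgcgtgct
Ccnf, chr17:24251390-24251609, minus strand: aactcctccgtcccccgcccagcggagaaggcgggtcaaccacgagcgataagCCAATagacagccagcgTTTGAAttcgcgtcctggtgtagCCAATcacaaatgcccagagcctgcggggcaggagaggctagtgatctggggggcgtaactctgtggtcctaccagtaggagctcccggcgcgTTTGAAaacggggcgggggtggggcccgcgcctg
Fbxo5, chr10:5805446-5805665, minus strand: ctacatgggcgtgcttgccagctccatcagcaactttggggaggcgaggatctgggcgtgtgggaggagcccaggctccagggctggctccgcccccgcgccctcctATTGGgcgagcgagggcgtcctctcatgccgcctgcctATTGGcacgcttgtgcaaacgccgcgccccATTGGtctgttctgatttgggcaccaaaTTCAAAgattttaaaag
Ube2s, chr7:4812321-4812540, minus strand: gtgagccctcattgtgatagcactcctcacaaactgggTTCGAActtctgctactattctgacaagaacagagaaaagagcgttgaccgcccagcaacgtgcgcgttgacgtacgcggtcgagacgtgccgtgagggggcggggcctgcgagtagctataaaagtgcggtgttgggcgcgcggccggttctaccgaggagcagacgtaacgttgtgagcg
Skp2, chr15:9140435-9140654, minus strand: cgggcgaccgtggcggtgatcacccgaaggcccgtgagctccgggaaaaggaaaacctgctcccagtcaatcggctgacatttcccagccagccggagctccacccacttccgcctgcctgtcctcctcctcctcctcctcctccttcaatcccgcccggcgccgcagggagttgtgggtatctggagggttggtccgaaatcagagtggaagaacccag

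In the first 5 of these sequences a CHR match began within 40 bases before or 10 bases after the annotated start. It began at position -18 in Cdc20, -29 in Ube2c, -17 in Cks1b, -14 in Ccnf and 4 in Fbxo5. These bounds were chosen after the positions were seen. Of 17492 protein-coding genes in the promoter table, 2.89% had a CHR match there, and 20.2% had one anywhere in the window of 250 bases before to 50 bases after the start. In that whole window 7 of the 10 genes had a CHR match and 8 had a CCAAT box, against 42.3% of all genes for the box. No CHR match was found in the windows of Fzr1, Cks2 and Fbxw7. In Ube2s it was the palindrome TTCGAA at position -162, and in Skp2 it lay only in the window of the upstream start, where no peak was listed.

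The E2F consensus, searched as TTTCCCGC, TTTGGCGC, TTTCGCGC or TTTGCCGC on both strands, was in the promoter window of 0 of the 10 genes, against 3.29% of all genes in the table. Without the first T the count was also 0, against 13.7%. Genes with a peak in both E2F1 libraries had the 8-letter consensus in 6.19% of cases and genes without any E2F1 peak in 1.43%. Among 421 genes whose peak was in the top 10% of both lists it was present in 15.7%. Without the first T these shares were 24.1%, 7.20% and 38.7%, in the same order. Both forms are therefore missing from most windows of strongly bound genes too. Only 4 of the 18 summits at the starts of the 9 genes lay inside the window of the nearest start, and the sequence under the others was not used here.

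The E2F1 lists held 7836 and 8027 peaks in replicates 1 and 2, and the EV lists 70 and 358. The lowest local background in a list, which serves as its measure of depth, was 1.85, 1.86, 2.20 and 1.18 reads in the same order. The smallest −log10 p in every list was just above 10, so weaker enrichment is not listed. At its lowest background, a peak needed a pileup of 17 reads (fold 5.63) in EV replicate 1 and 13 reads (fold 6.43) in EV replicate 2. All 10 peaks of each E2F1 library at these genes had pileups at or above both limits. By fold all 10 of replicate 2 passed both, and 8 and 6 of the 10 in replicate 1 passed the first and the second. The pileup and fold limits hold at the lowest background only, and at a higher background more reads would be needed.

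With 9 genes in each E2F1 library and 0 in each EV library, the means were 9 ± 0 and 0 ± 0 genes (SD, n = 2). A two-sided exact permutation test over the libraries gave p = 0.333. No lower value is possible with 2 libraries against 2, so a p under 0.05 is out of reach. Any full separation of the groups gives this p, so it does not measure the size of the difference. The background is a large one. Of all protein-coding genes, 36.9% had a peak in E2F1 replicate 1, 38.2% in E2F1 replicate 2 and 34.4% in both. In the EV libraries the shares were 0.0366% in replicate 1 and 0.407% in replicate 2, which makes 0 of 10 the usual outcome there. The nearest EV peak to any of the 10 genes was 110 kb from Cdc20, in EV replicate 2. Among 8 of the genes, those on chromosomes where EV replicate 1 listed peaks, the nearest was 4359 kb away, from Cks1b. A peak in the top 10% by fold of both E2F1 lists was found at 4 of the 10 genes, against 2.35% of all protein-coding genes. The count was 3 of 10 by score, against 2.88% of all genes, and 3 of 10 by pileup, against 3%. The threshold and these ranks were chosen after the values were seen.

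**Figure D1:**
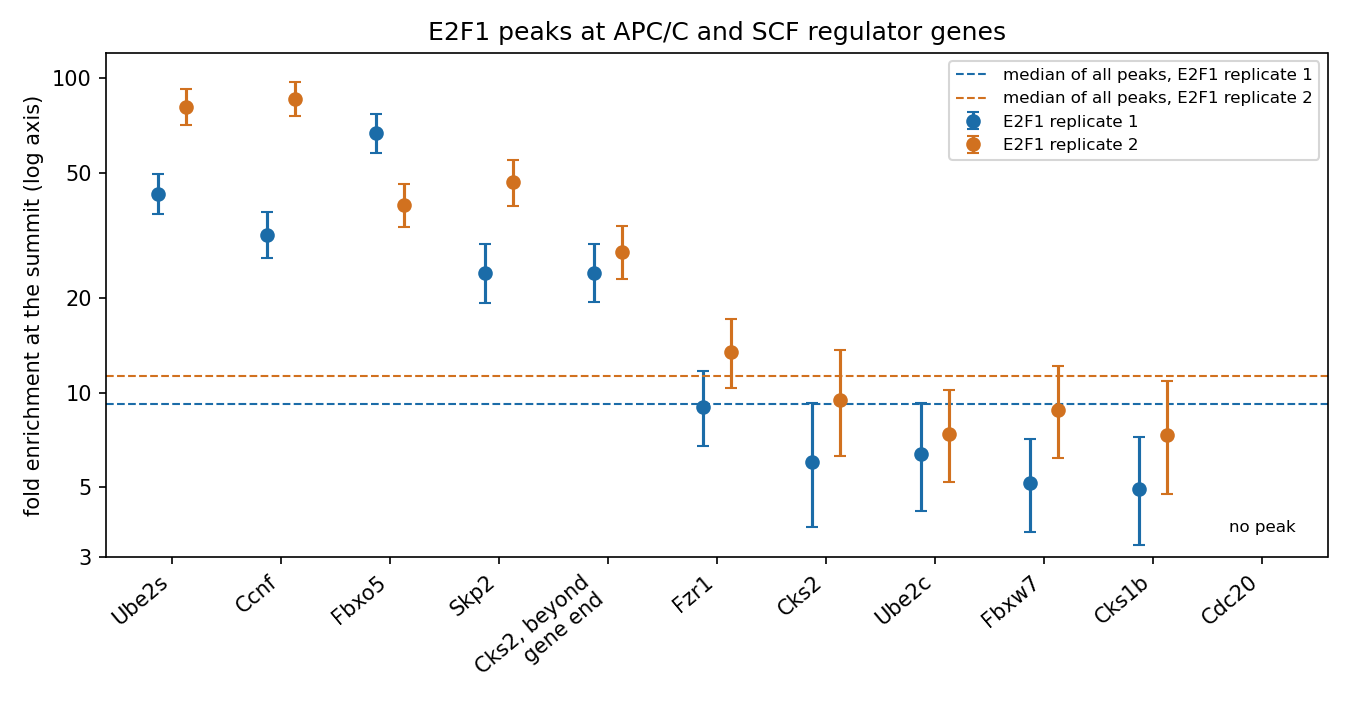
Fold enrichment (log axis) of each peak at the 10 genes in E2F1 replicates 1 and 2, with exact Poisson 95% intervals of the pileup and the background held fixed, and dashed lines at the median fold of each list. Ube2s, Ccnf, Fbxo5, Skp2 and the peak beyond the end of Cks2 lie above both medians, the peaks at the starts of Cks2, Ube2c, Fbxw7 and Cks1b lie below their list's median, and Cdc20 has no peak.

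Of the coactivators of the APC/C, Fzr1 had a peak and Cdc20 had none. At Fzr1, on chromosome 10 from 81366879 to 81378370, the peak spanned 81377925 to 81379560 in E2F1 replicate 1 and 81378100 to 81379065 in replicate 2. Its fold was 8.98 in replicate 1, against a list median of 9.19, and 13.4 in replicate 2, against 11.3. It ranked in the top 51.6% and the top 41.1% of the lists. The summits lay 89 bp inside the gene and 102 bp before its start.

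Cdc20, the coactivator that starts anaphase, lies on chromosome 4 from 118432901 to 118437343 and had no peak within 1000 bp in any library. The nearest E2F1 peak ended 4371 bp from the gene in replicate 1, with fold 7.84, and 4499 bp from it in replicate 2, with fold 12.7. Both were at the start of Elovl1, a fatty acid elongase gene whose end overlaps that of Cdc20 by 53 bp. Their summits lay 101 and 73 bp before the Elovl1 start and 9351 and 9323 bp from the start of Cdc20. At the lowest background of the E2F1 libraries a pileup under 16 reads would not be listed, so weaker enrichment at Cdc20 was not detectable.

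Fbxo5 encodes Emi1, an inhibitor of the APC/C that lets cyclins build up in S phase, and had the strongest peak of the 10 genes in E2F1 replicate 1. The gene lies on chromosome 10 from 5799158 to 5805465. The peak spanned 5803677 to 5806670 in E2F1 replicate 1 and 5803823 to 5806656 in replicate 2. With widths of 2994 and 2834 bp it was among the widest 1.29% and 0.623% of the lists, whose median widths were 938 and 814 bp. The fold was 66.9 in replicate 1, rank 5 of 7836, and 39.5 in replicate 2, rank 417 of 8027. The summits agreed to within 10 bp and lay 337 and 327 bp before the start site, upstream of the stretch shown.

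The E2 enzymes that load ubiquitin for the APC/C differed from each other. Ube2s extends the ubiquitin chains and Ube2c places the first ubiquitins. At Ube2s, on chromosome 7 from 4808014 to 4812340, the fold was 42.8 in E2F1 replicate 1, rank 64, and 80.8 in replicate 2, rank 25. The peak spanned 4811587 to 4812820 and 4811844 to 4813234, with summits 204 and 264 bp before the start.

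At Ube2c, on chromosome 2 from 164769929 to 164772902, the fold was 6.36 in replicate 1 and 7.39 in replicate 2, ranks 5945 and 5934. The peak spanned 164769821 to 164770556 and 164769441 to 164770204, with summits 75 and 112 bp inside the gene. Its pileups of 25 and 35 reads (exact Poisson 95% intervals 16.2 to 36.9 and 24.4 to 48.7) do not reach those of Ube2s, at 183 and 230 reads (157 to 212 and 201 to 262). The intervals cover counting error only.

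Among the SCF genes, cyclin F and Skp2 had the strong peaks. Ccnf encodes cyclin F, an F-box protein that targets ribonucleotide reductase in G2, and lies on chromosome 17 from 24223230 to 24251409. Its peak spanned 24249414 to 24252489 in E2F1 replicate 1 and 24250286 to 24252185 in replicate 2. The fold was 31.8 in replicate 1, rank 231, and 85.9 in replicate 2, rank 19, the highest at any of the 10 genes in that library. The summits were 352 bp apart, 141 bp inside the gene in replicate 1 and 211 bp before the start in replicate 2.

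Skp2, the F-box protein that brings the CDK inhibitor p27 to the ligase, lies on chromosome 15 from 9111982 to 9155425. Its peak was not at the outer end of the gene but at an inner start site at 9140454. It spanned 9139032 to 9141170 and 9139269 to 9141172, with folds of 24.0 and 46.6 and ranks 538 and 253. The start of Lmbrd2, transcribed in the opposite direction, lies 116 bp from this site. The summits, 140 and 119 bp inside Skp2, were 256 and 235 bp from that start, so the peak cannot be assigned to one gene of the pair by position.

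The Cks proteins bind cyclin-dependent kinases, and Cks1, the product of Cks1b, is the cofactor with which Skp2 recognises p27. At Cks1b, on chromosome 3 from 89415472 to 89418291, the fold was 4.96 in E2F1 replicate 1 and 7.35 in replicate 2, ranks 7319 and 5964. The peak spanned 89418074 to 89419070 and 89418068 to 89419031. Shc1, an adaptor of growth factor receptors, starts 260 bp away in the opposite direction. The summit of replicate 1 was 162 bp inside Shc1 and that of replicate 2 was 44 bp inside Cks1b.

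Cks2, on chromosome 13 from 51645232 to 51650662, had a pair of peaks in each E2F1 library. The peak near its start had folds of 6.03 and 9.45, with pileups of 19 and 26 reads and summits 285 and 295 bp inside the gene. It spanned 51645336 to 51645998 in replicate 1 and 51645327 to 51645714 in replicate 2. The stronger peak began 585 and 669 bp beyond the other end of the gene, with folds of 24.1 and 28.0. It spanned 51651247 to 51652054 and 51651331 to 51652093, and its summits lay 134 and 70 bp inside Secisbp2, a gene of selenoprotein synthesis. The assignment of this peak to Cks2 rests on the 1000 bp margin alone.

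Fbxw7, the F-box protein for cyclin E, Myc and Jun, lies on chromosome 3 from 84814990 to 84979198. Its peak spanned 84814040 to 84815495 and 84814041 to 84815065, with folds of 5.16 and 8.79 and ranks 7126 and 5161. The summits, at 84814922 and 84814423, lay 655 and 1154 bp before the first start site of the promoter windows, at 84815577. The gene's span begins upstream of that site, at 84814990, so the summits lie closer to the span than these distances. A non-coding gene, Gm35486, starts in the opposite direction 1144 bp from that site, and the summit of replicate 2 was 10 bp from its start, against 489 bp in replicate 1. No other peak was listed in the 164209 bp of the gene.

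**Figure D2:**
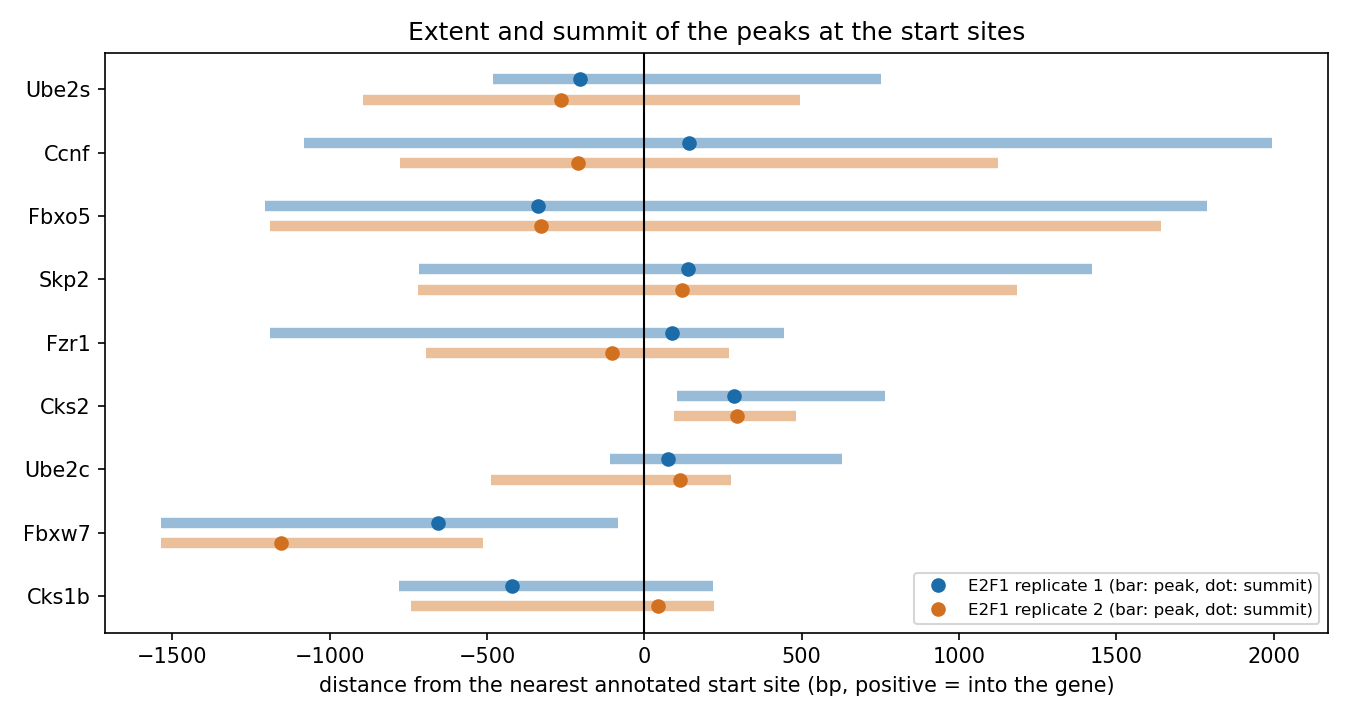
Extent (bar) and summit (dot) of the peak at the start of each gene in the E2F1 libraries. Distances in bp are from the nearest start site of the promoter windows, with positive values into the gene. The span of Fbxw7 begins upstream of its site. For 7 of the 9 genes both summits lie within 350 bp of the start, Fbxw7 and one summit of Cks1b being further upstream, and the peaks at Fbxo5, Ccnf and Skp2 are the widest.

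In order of mean rank by fold, the peaks ran from Ube2s through Ccnf, Fbxo5, Skp2, the peak beyond Cks2, Fzr1, Cks2, Ube2c and Fbxw7 to Cks1b. Neighbours in this order had overlapping ranges over the replicates except on either side of Fzr1. The first 5 peaks were in the top 12.05% of each list, Fzr1 stood alone between 41.1% and 51.6%, and the last 4 were between 60.2% and 93.4%.

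All 10 peaks of E2F1 replicate 1 at these genes were overlapped by their counterpart in replicate 2. Of all 7836 peaks of replicate 1, 6882 had a one-to-one counterpart there. The summits of 7 of the 10 pairs were within 200 bp, against 87.6% of 6882 paired peaks in the whole lists, with median gaps of 62 and 54 bp. Those further apart were Ccnf, Cks1b and Fbxw7, with gaps of 352, 466 and 499 bp. The fold was higher in replicate 2 for 9 of the 10 pairs, with a median ratio of 1.53, against a median of 1.26 over all pairs. Only 29.7% of all pairs had a ratio below 1, so a higher fold in replicate 2 was usual. Fbxo5 was the exception among the 10, with a ratio of 0.591, and 3.71% of all pairs had a ratio as low.

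To see whether pileup or local background differed, both were recovered from each peak's deposited fold and its −log10 p. At Fbxo5 the pileups were 190 reads in replicate 1 and 161 in replicate 2, with overlapping intervals of 164 to 219 and 137 to 188. The local backgrounds were 1.85 and 3.10 reads. By pileup the ratio at Fbxo5 was 0.847, and 27.0% of all pairs had a pileup ratio as low. At Ccnf the pileups were 141 and 261 reads and at Skp2 85 and 141, and in both genes the intervals did not overlap. At the other 8 peaks, Fbxo5 included, the intervals of the replicates overlapped. The median pileup ratio was 1.21 at these peaks and 1.00 over all pairs.

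**Figure D3:**
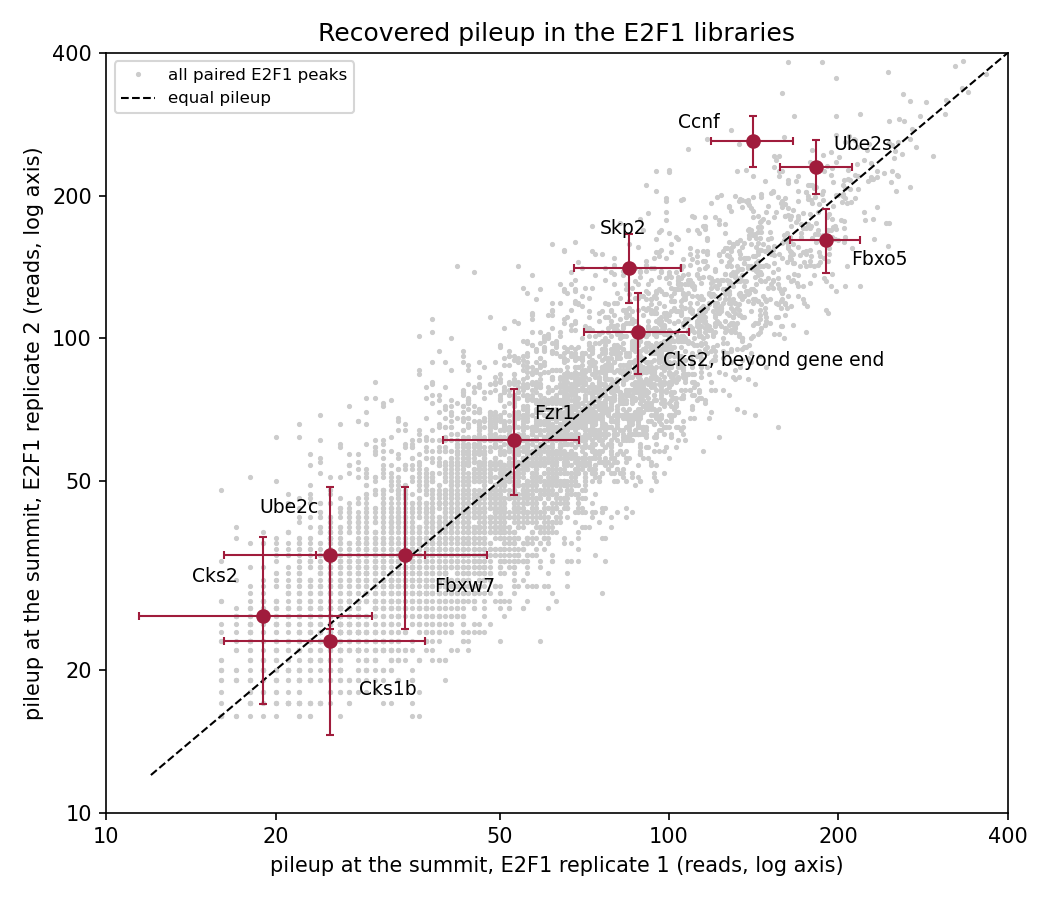
Pileup at the summit in E2F1 replicate 1 against replicate 2 (reads, log axes), for the peaks at the 10 genes with exact Poisson 95% intervals and for all paired E2F1 peaks in grey, of which those beyond the axes are not drawn. At Ccnf, with 141 and 261 reads, and Skp2, with 85 and 141, the intervals of the replicates do not overlap. At the other peaks they do.

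Other genes of the ligases were taken from lists chosen with earlier results of these data known, and their counts are descriptions. Of all protein-coding genes, 34.4% had a peak in both E2F1 libraries. Of 14 core subunits of the APC/C, 12 had a peak in both E2F1 libraries (85.7%, Wilson 95% interval 60.1 to 96.0). By mean fold the highest was Anapc5, a scaffold subunit, with 44.2 and 50.9, and the lowest Cdc27, which binds the coactivators, with 9.59 and 6.53. Cdc23 had no peak in either. Median folds of the genes with a peak were 13.4 in replicate 1 and 15.0 in replicate 2, against 9.73 and 12.0 for all protein-coding genes with a peak and 24.0 and 28.0 for the 9 regulators with one. Without the peak beyond the end of Cks2, at the start of Secisbp2, the medians of the 9 were 8.98 and 13.4, the first below that of all genes.

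Of 13 genes of the SCF core and of neddylation, the modification that activates cullins, 11 had a peak in both libraries (84.6%, 57.8 to 95.7). None of the 13 was in the top 10% by fold of both lists. Of all protein-coding genes, 34.4% had a peak in both libraries and 2.35% had one in that top 10%. Among those 11 the highest folds were at Cdc34, the E2 enzyme of the SCF, with 22.0 and 26.6, and the lowest at Uba3, a subunit of the neddylation E1, with 5.35 and 6.65. Over the 12 genes of this list with a peak in each single library, the median folds were 9.69 in replicate 1 and 12.0 in replicate 2. For all protein-coding genes with a peak they were 9.73 and 12.0.

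Most substrates of the ligases had a peak too, against 34.4% of all protein-coding genes with one in both E2F1 libraries. Of 22 APC/C substrates, 20 had one in both libraries (90.9%, 72.2 to 97.5). Median folds were 12.1 over the 21 with a peak in replicate 1 and 13.97 over the 20 with one in replicate 2. For all protein-coding genes with a peak they were 9.73 and 12.0. Ccna2, the gene of cyclin A2, had the highest mean, with folds of 25.4 and 50.05, and Aurka, a mitotic kinase, the lowest, with 5.34 and 7.78. Pttg1, the gene of securin, which Cdc20 directs to the APC/C at anaphase, had no peak.

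Of 17 SCF substrates, 15 had a peak in both libraries (88.2%, 65.7 to 96.7). By fold, 6 of the 17 were in the top 10% of both lists. Over all protein-coding genes these shares were 34.4% and 2.35%. Ccne1, the gene of cyclin E1 and a target of Fbxw7, had folds of 65.0 and 131.6. Rbl2, the gene of the pocket protein p130, had 7.06 and 7.26, and Cdkn1c had no peak.

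Among 8 genes listed as checkpoint inhibitors and deubiquitinases of the APC/C, 3 had a peak in both libraries (37.5%, 13.7 to 69.4). This share was near the 34.4% of all protein-coding genes. The 3 were Mad2l1, Trip13 and Usp37. The list is wider than its name, as Trip13, Mad2l1bp and Cdc14b belong to neither class. Usp37 had the highest folds, 23.6 and 39.5, and Trip13 the lowest, 10.6 and 18.6. Taken singly, E2F1 replicate 1 listed a peak at 3 of the 8 (37.5%), against 36.9% of all protein-coding genes. Replicate 2 listed one at 6 of the 8 (75%), against 38.2%, so the nearness to the background does not hold in that library. Mad2l1bp and Usp44 had none in either library. No gene of these 5 lists had a peak in an EV library. Of all protein-coding genes 0.0366% and 0.407% had one in EV replicates 1 and 2, so this is the usual outcome for lists this short.

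**Figure D4:**
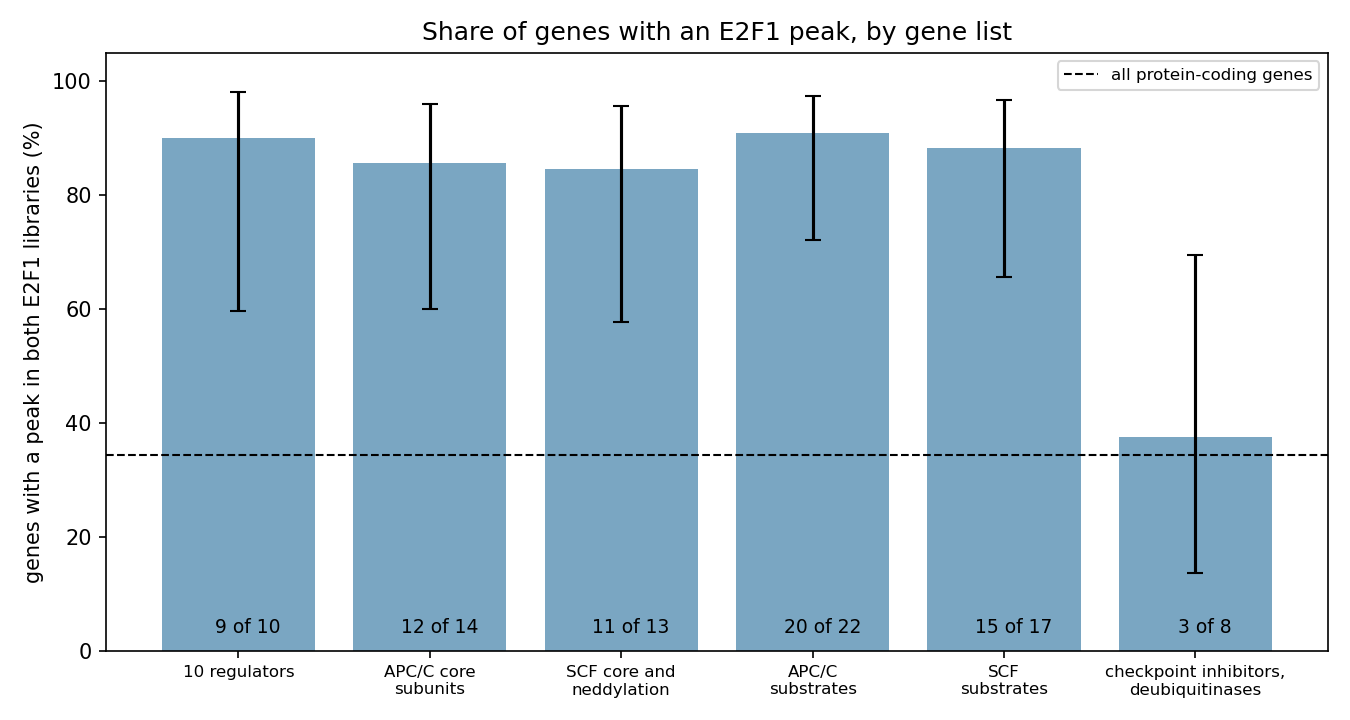
Share of genes (%) with a peak inside or within 1000 bp in both E2F1 libraries, for the 10 regulators and 5 lists of related genes, with Wilson 95% intervals and a dashed line at the 34.4% of all protein-coding genes. The shares of the first 5 bars lie between 84.6% and 90.9%, and that of the list named checkpoint inhibitors and deubiquitinases is 37.5%.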

How the data were processed

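ChIP-seq peak lists of 2 E2F1 and 2 EV libraries were used, 1 list per library. The titles of the samples give the group and the replicate number. The lists follow the narrowPeak layout with 10 columns. The deposited score of a peak is 10 times its deposited −log10 q-value to within 1. The fold enrichment, a ratio of pileup to local background, and the −log10 p-value are the authors' own. The submitters' processing notes name FastQC, Trimmomatic, Bowtie2, MACS2 and ChIPseeker, and the build mm10, which is GRCm38. The labels' extract protocol describes RNA libraries. The roles of the tools, the antibody and the control of each list are not given in the sources used here.

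Gene spans came from a RefSeq table of GRCm38.p6. Start sites and promoter sequences came from a RefSeq promoter table of the same assembly, which held all 10 genes and 79.9% of protein-coding genes. Pileup and background were solved from fold, taken as (pileup + 1) over (background + 1), and a Poisson tail, and a whole number within 5% of a step was found for 99.99% and 99.98% of E2F1 peaks. The code was tested on simulated data. Intervals of shares are Wilson and those of pileups exact Poisson, both at 95% and for counting error only. The members and lists were chosen with earlier results of these data known. All 10 genes are named. Of each other list, the genes with the highest and lowest mean fold and those without an E2F1 peak are named. No set test was made. The alternatives tried were other margins, a higher score, summits in place of peaks, other ranks and overlaps, and each library left out. Python 3.11.15, pandas 2.3.3 and SciPy 1.17.1 were used.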

Additional observations from a re-analysis of the deposited data

How the results depend on the processing

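Of 69 alternatives over 23 results, 55 stayed on the same side or within the spread, against 14 that moved. The difference of 9 genes with a peak between E2F1 and EV libraries was also 9 with margins of 0, 500 and 2500 bp, with summits in place of peaks, with start sites in place of spans (chosen after seeing the data) and without each library in turn (lowest 9, highest 9). With peaks at or above the pooled E2F1 median score of 312 it was 6, with the same 6 genes in both E2F1 libraries, and Cks1b, Fbxw7 and Ube2c were lost. Cks2 counts there only through the peak at Secisbp2, and without that peak (chosen after seeing the data) it was 5. With the replicate block the difference was 9 and exact sign flips gave p = 0.5, the lowest possible for 2 pairs. Each library gives a single number here, so a pairing of the replicates cannot be checked.

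The share of all protein-coding genes with a peak moved from 34.4% to 30.9% at gene boundaries alone, to 33.1% at start sites and to 18.0% over all genes of the table, and was 36.9% to 38.2% in single E2F1 libraries. That of the list named checkpoint inhibitors and deubiquitinases ran from 37.5% to 75% in single E2F1 libraries. The higher value was that without E2F1 replicate 1. By score and by pileup the mean rank of Skp2 moved from the top 5.01% to 8.48% and 12.4%. The cause was not tested. Peak positions limit assignment where genes share a start region, and the listing threshold limits every absence.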
